A study of Mus musculus with 840 samples.

Results

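The genes described here are 54 mouse genes that encode proteins of the extracellular matrix and of the basement membrane, together with enzymes and inhibitors that act on them. They were taken by gene symbol, not by their values, from the 39154 Ensembl genes counted in single mammary epithelial cells. All 54 were found, and all 54 passed the filter on low counts that left 19796 genes for testing. They comprise 5 basement membrane collagens, 8 laminin chains, 5 linkers of the basement membrane, 2 anchoring collagens, 10 interstitial collagens, 4 genes of elastic fibres and fibronectin, 3 proteoglycans, 10 matricellular proteins and 7 matrix enzymes and inhibitors.

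The basement membrane is a thin sheet on which the mammary epithelium rests. Laminin trimers and a network of type IV collagen form it, and nidogens, perlecan and agrin link these layers. Basal (myoepithelial) cells touch the sheet and bind it through integrins, whereas most luminal cells do not. Interstitial collagens, elastin, fibrillin and small proteoglycans form the stroma beyond it and are made mostly by fibroblasts, and matricellular proteins such as SPARC and thrombospondins modulate how cells adhere to this matrix.

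Each mouse carried a tamoxifen-inducible Cre that is active in basal cells, either SMACreERT2 or K5CreERT2, together with the Rosa-N1ICD-IRES-nGFP allele, and was given tamoxifen at postnatal day P21. Recombination makes a cell express the active intracellular domain of Notch1 (N1ICD) and a nuclear GFP, so GFP+ cells are recombined basal cells or their progeny, and GFP- cells are unrecombined cells of the same treated mice. Single cells were sorted by EpCAM and CD49f into basal (EpCAM low, CD49f high), intermediate (both medium) and luminal (EpCAM high, CD49f low) gates after removal of blood and endothelial cells, with no stain against fibroblasts, and were sequenced with Smart-seq2, which counts reads and not molecules. SMACre cells came from plate 1 (1 week after tamoxifen), plates 2, 3 and E (3 weeks), plate 4 (4 weeks) and plate 5 (6 weeks), and K5Cre cells from plates G and L (3 weeks). The labels of plate L disagree, since its sample names give 6 weeks, and it is taken here as 3 weeks. Plates 1, 2 and 5 were batch 1, plates 3 and 4 batch 2, and plates E, G and L batch 3, so both K5Cre plates lie in batch 3 and Cre line and batch cannot be told apart beyond plate E.

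After filtering, 100 basal GFP+ and 120 luminal GFP+ cells remained, with 17 basal, 12 intermediate and 39 luminal GFP- cells. Intermediate GFP+ cells were 4, 3, 13, 19, 60, 63 and 61 on plates 1, 2, 3, 4, E, G and L. Reads were summed for each plate and sorted group with at least 3 cells, which gave 5 basal GFP+, 7 intermediate GFP+ and 6 luminal GFP+ sums, and 3 basal, 2 intermediate and 7 luminal GFP- sums. The plate is the replicate, since each was filled from its own 1 or 2 mice, and levels are given as counts scaled to 1e+06 reads (CPM) of the sum. Median reads per cell were 402767 in batch 1, 397250 in batch 2 and 1499629 in batch 3. Plates 1, 3, 4, G and L hold all 3 GFP+ gates.

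The gates followed their markers, with 10 basal markers together at 2803 to 18119 CPM in basal GFP+ sums and 32.1 to 1245 CPM in luminal GFP+ sums. Sums that stood apart were the 4 intermediate GFP+ cells of plate 1, with fibroblast markers at 660.4 CPM and pericyte and endothelial markers at 1164 CPM, the 8 luminal GFP+ cells of plate 1, with salivary markers at 643 CPM, and the 6 intermediate GFP- cells of plate L, with immune markers at 2301 CPM. The basal GFP+ sum of plate L had the lowest basal markers of its group (2803 CPM) and the lowest summed matrix genes (4987 CPM, against 14320.0 to 18344 CPM in the other 4). Results are also given without each of these plates where that changed a call.

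With every cell thinned to 100000 reads, a basal GFP+ cell had a read of a median of 30 of the 54 genes (quartiles 20.75 and 33.25), an intermediate GFP+ cell of 21 (13 and 28) and a luminal GFP+ cell of 11 (9 and 13). These medians pool cells of plates that differ between the gates, since most intermediate GFP+ cells are of batch 3 and most basal GFP+ cells of batches 1 and 2, as do the shares of cells given below. Within plates 1, 3, 4, G and L, the medians were 27, 31, 32, 18 and 14 genes in basal, 7.5, 27, 28, 22 and 11 in intermediate and 10.5, 13, 10, 12 and 14 in luminal GFP+ cells. The intermediate median was thus below the basal one on 4 plates and above it on plate G, and the luminal median was below the basal one on 4 plates and equal to it on plate L. The intermediate gate was the widest, from 0 to 42 genes per cell, and 1 luminal GFP+ cell, on plate 4, had 39. In GFP- cells the medians were 36 in the basal, 17 in the intermediate and 10 in the luminal gate.

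**Figure D1:**
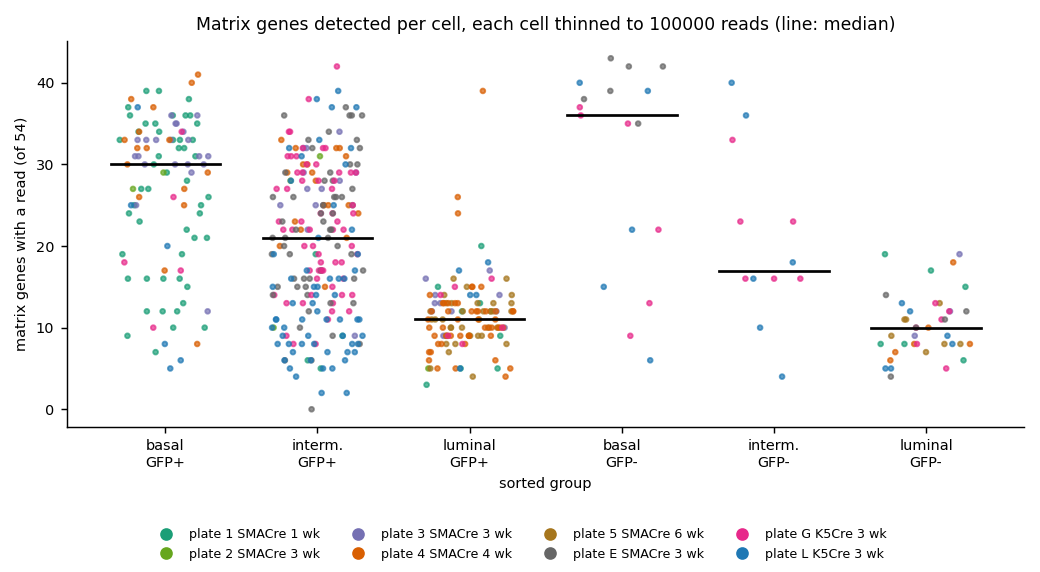
Number of the 54 matrix genes with a read in each cell after thinning to 100000 reads (y axis), by sorted group (x axis), with 1 point per cell coloured by plate and a line at the median. Medians are 30, 21 and 11 in basal, intermediate and luminal GFP+ cells, and intermediate GFP+ cells spread from 0 to 42.

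The levels of each plate were compared in a single edgeR quasi-likelihood fit over all 6 sorted groups, with plate as a term and Benjamini-Hochberg adjustment over all 19796 genes. Between luminal and basal GFP+ cells, 10 of the 54 matrix genes were lower and 0 were higher, where 0.727% of all genes tested passed (64 higher and 80 lower). These were Sparc, Hspg2, Hmcn1, Mmp2, Col5a1, Col14a1, Adamts18, Fbn1, Col16a1 and Postn. Between luminal and intermediate GFP+ cells, 3 matrix genes were lower, Sparc, Hspg2 and Fbn1, where 0.152% of all genes passed (9 higher and 21 lower). Between intermediate and basal GFP+ cells, no matrix gene and no gene of the genome passed (0%), although 3 of the 54 and 618 of all genes had an unadjusted p under 0.05 in edgeR, and DESeq2 called 1 and 384 (1.94% of all genes). DESeq2 also called 24 matrix genes, all lower, between luminal and intermediate cells (5.82% of all genes) and 31, of which 30 were lower and 1 higher, between luminal and basal cells (8.58% of all genes). Within batches 1 and 2 edgeR called 0 and 1 in these 2 comparisons (0.0418% and 0.132% of all genes), and within batch 3 it called 1 and 1 (0.0445% and 0.0778%). Each of these within-batch calls was Sparc.

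The median fitted log2 difference of the matrix genes was -0.60 from basal to intermediate cells, with 40 of 54 negative, against 0.05 over all genes tested. Within batches 1 and 2 it was -1.22, with 46 of 50 negative, against -0.33 over all genes. Within batch 3 it was -0.097, with 27 of 53 negative, against 0.49 over all genes. From intermediate to luminal cells it was -3.07, with 47 of 54 negative, against -0.08 over all genes. From basal to luminal cells it was -3.96, with 49 of 54 negative, against -0.03. The 2 steps were compared directly as the second difference minus the first: the median over the matrix genes was -1.90 (43 of 54 negative, against -0.21 over all genes), and 0 of the 54 passed where 0.0152% of all genes did, with 12 of the 54 and 976 of all genes at an unadjusted p under 0.05 in edgeR, and 4 and 451 (2.28% of all genes) called by DESeq2. This median depended on the scale and the batch. With limma on the mean of log2(CPM + 1) per cell it was 0.042, against 0.19 over all genes, with 23 of 48 negative, and with edgeR it was -0.80, against 0.52 over all genes, within batches 1 and 2 and -3.73, against -1.28 over all genes, within batch 3, where Sparc passed (0.0111% of all genes).

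**Figure D2:**
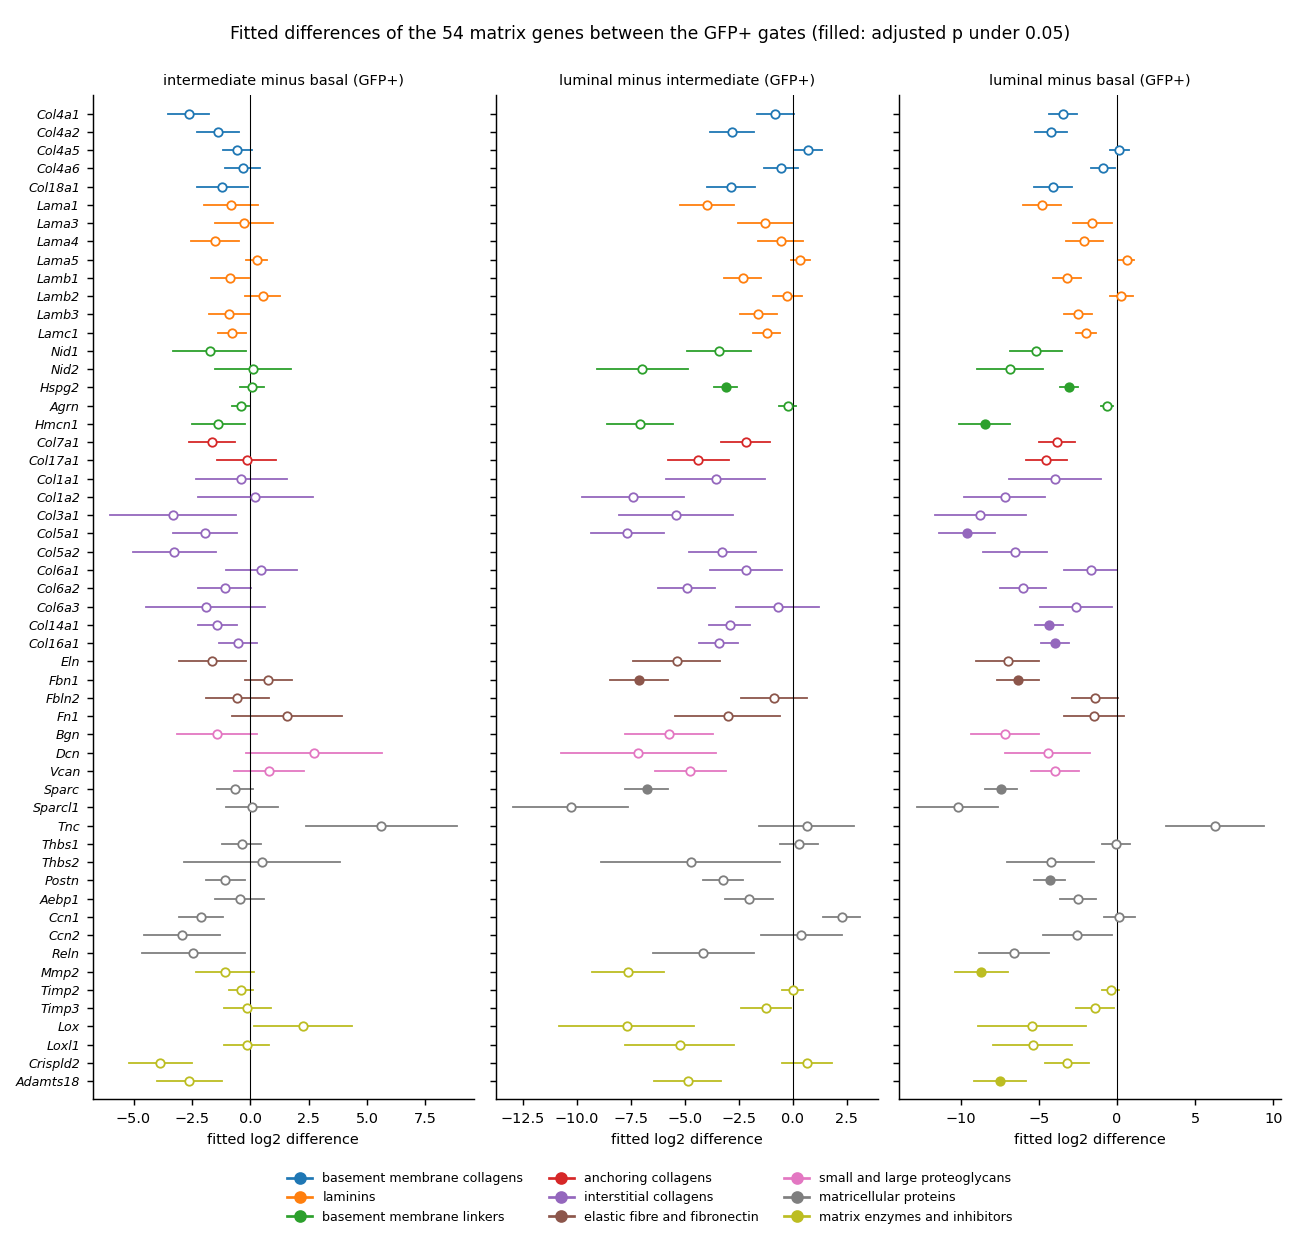
Fitted log2 difference (x axis) of each of the 54 matrix genes (points, with bars of 1 standard error, coloured by role) for intermediate minus basal, luminal minus intermediate and luminal minus basal GFP+ cells, with filled points for an adjusted p under 0.05. Filled points are 0 in the left panel, 3 in the middle and 10 in the right.

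Plates differed at the first step. Intermediate cells had lower values than basal cells of the same plate in 48 of 54 genes on plate 1, 35 on plate 3, 36 on plate 4, 14 on plate G and 31 on plate L. Thus most genes were lower on 4 plates and most were higher on plate G. Luminal cells had lower values than intermediate cells in 21, 42, 43, 45 and 41 genes on plates 1, 3, 4, G and L, and plate 1, whose intermediate sum holds 4 cells, was the exception, with 20 genes higher and 13 equal. Luminal values lay below basal values in 50, 48, 47, 34 and 35 genes on the same plates. Shares over all genes were not counted plate by plate.

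By their levels, 3 of the genes (Col4a1, Col4a2 and Lama4) were already low in intermediate GFP+ cells, meaning a fitted first-step difference of -1 log2 unit or less and a lower value on 5 of 5 plates. A further 18 were held there, with a fitted first-step difference above -0.5, 25 lay between, and 8 had a basal mean below 5 CPM and were not placed (Nid2, Col1a1, Col1a2, Col3a1, Col6a3, Tnc, Thbs2 and Lox). The held class does not consider luminal cells, and it includes Lama5 and Lamb2, whose luminal means were above the basal ones. It also includes Fn1 and Loxl1, whose means were lower in intermediate (6.20 and 2.49 CPM) than in basal cells (32.9 and 9.63 CPM). These classes describe the fitted values and are not calls, because no gene passed in the first step of the edgeR fit above. Across the 5 plates with all gates, basal and luminal ranges did not overlap for 14 of the 54 genes, all lower in luminal cells, against 1.31% of all genes. Intermediate and luminal ranges were separate for 4, Hspg2, Fbn1, Sparc and Mmp2, against 0.667% of all genes. Basal and intermediate ranges were separate for Col4a1, 1 of the 54, against 0.131% of all genes.

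The type IV collagen genes of this set form a pair of head-to-head couples, and their promoter windows are shown because the genes of each couple start near each other on opposite strands. In mouse build GRCm38, Col4a1 lies at chromosome 8, 11198423 to 11312826 on the minus strand, and Col4a2 at 11312805 to 11449287 on the plus strand, so that their gene models overlap by 22 bases and their RefSeq promoter windows (250 bases before to 50 after the start) share 78 bases. Col4a6 (chromosome X, 141165403 to 141474076, minus strand) and Col4a5 (chromosome X, 141475385 to 141689234, plus strand) lie 1308 bases apart and share none. In the sequences, written 5′ to 3′ on each gene's strand, capitals mark the motifs searched on both strands, which were GGGCGG (a GC box), CCAAT (the CCAAT box), TGANTCA (an AP-1 site), TGGGAA (the core bound by the Notch partner RBPJ) and TATAAA.
Col4a1: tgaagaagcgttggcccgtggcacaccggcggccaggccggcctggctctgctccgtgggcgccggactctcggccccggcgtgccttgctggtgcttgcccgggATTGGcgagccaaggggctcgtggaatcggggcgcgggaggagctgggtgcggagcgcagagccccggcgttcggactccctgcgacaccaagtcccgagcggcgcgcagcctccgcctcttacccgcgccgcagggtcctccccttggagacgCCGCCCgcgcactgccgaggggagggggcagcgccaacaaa
Col4a2: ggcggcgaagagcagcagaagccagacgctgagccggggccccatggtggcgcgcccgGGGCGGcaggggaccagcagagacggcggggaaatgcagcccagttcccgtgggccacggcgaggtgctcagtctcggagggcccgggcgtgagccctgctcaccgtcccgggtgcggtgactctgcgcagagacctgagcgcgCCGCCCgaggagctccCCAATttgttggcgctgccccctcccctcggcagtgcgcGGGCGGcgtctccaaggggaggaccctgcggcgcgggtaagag
Col4a6: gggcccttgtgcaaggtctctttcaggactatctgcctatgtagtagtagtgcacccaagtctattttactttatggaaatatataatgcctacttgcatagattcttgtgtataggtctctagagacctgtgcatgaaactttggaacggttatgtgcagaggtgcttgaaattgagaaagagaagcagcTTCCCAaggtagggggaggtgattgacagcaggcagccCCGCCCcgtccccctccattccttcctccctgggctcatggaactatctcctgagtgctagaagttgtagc
Col4a5: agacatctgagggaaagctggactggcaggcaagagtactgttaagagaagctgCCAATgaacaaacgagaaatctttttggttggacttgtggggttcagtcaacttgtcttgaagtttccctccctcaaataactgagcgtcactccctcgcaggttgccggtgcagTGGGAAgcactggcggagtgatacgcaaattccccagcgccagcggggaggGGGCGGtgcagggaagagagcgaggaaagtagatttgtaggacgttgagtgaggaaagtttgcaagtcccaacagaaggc
The Col4a1 window (chr8:11312777-11313076) and the Col4a2 window (chr8:11312555-11312854) hold 74% and 73.7% G and C, and those of Col4a6 (chrX:141474027-141474326) and Col4a5 (chrX:141475169-141475468) 48.3% and 52.7%. Over the 37 of 54 members with a RefSeq window, GGGCGG was found in 70.3% (35.9% of all 27025 promoter windows), CCAAT in 45.9% (37.9%), TGGGAA in 29.7% (25.5%), TATAAA in 13.5% (14.2%) and the AP-1 site in 2.7% (7.93%). A match of letters is not a bound site.

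Col4a1 and Col4a2, whose chains form the common type IV collagen trimer, had lower values already in the intermediate gate, on every plate that holds both gates. Basal GFP+ cells had 207.6, 230.9 and 305.9 CPM of Col4a1 on plates 1, 3 and 4 (SMACre) and 166.8 and 377.5 CPM on plates G and L (K5Cre). The intermediate GFP+ sums of Col4a1 gave 1.37 to 185.6 CPM over 7 plates (median 49.7), and the luminal GFP+ sums 4.81 to 70.5 CPM over 6 plates (median 24.6). On each of the 5 shared plates the intermediate value was below the basal one, with means of 257.7 ± 83.9 CPM in basal and 49.2 ± 32.8 CPM in intermediate cells (SD, n = 5), while the highest intermediate value came from a plate with no basal GFP+ sum and lay inside the basal range. The fitted first-step difference was -2.65 (edgeR log2 difference, SE 0.88, adjusted p = 1.0), and that from basal to luminal cells was -3.45 (edgeR log2 difference, SE 0.87, adjusted p = 0.0603). From intermediate to luminal cells it was -0.81 (edgeR log2 difference, SE 0.86, adjusted p = 0.886), with 0.50 within batches 1 and 2 and -1.95 within batch 3, so that its direction at this step differed between batches.

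In basal GFP+ cells, Col4a2 was at 232.6, 245.2 and 330.2 CPM on SMACre plates 1, 3 and 4 and at 36.8 and 195.8 CPM on K5Cre plates G and L. For Col4a2, the intermediate GFP+ level was 32.2 to 79.02 CPM over 7 plates (median 53.6) and the luminal GFP+ level 0.272 to 43.1 CPM over 6 plates (median 8.76). Luminal values were below intermediate ones on 5 of 5 plates, and intermediate below basal on 5 of 5. On plate G the intermediate value was 34.6 CPM, close to the basal one. The fitted differences of Col4a2 were -1.39 (edgeR log2 difference, SE 0.91, adjusted p = 1.0) at the first step, -2.81 (edgeR log2 difference, SE 1.01, adjusted p = 0.37) at the second and -4.20 (edgeR log2 difference, SE 1.03, adjusted p = 0.0521) over both, so none passed in this fit. Of 21 alternative fits, 9 passed from basal to luminal cells for Col4a1 and 9 for Col4a2. The second step of Col4a2 passed in 2 and the first step of Col4a1 in 1. None of these fits was one with a plate left out. In cells thinned to 100000 reads, Col4a1 was read in 73% (63.2 to 81.4%) of basal, 40.8% (34.3 to 47.6%) of intermediate and 20% (13.3 to 28.3%) of luminal GFP+ cells, and Col4a2 in 77%, 43% and 12.5%. These exact binomial intervals, like all intervals on reads here, cover counting error only.

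Col4a5 and Col4a6 encode the chains of other type IV trimers, and their values overlapped in the 3 gates. Col4a5 was at 139.9, 140.1 and 66.8 CPM in the basal GFP+ cells of plates 1, 3 and 4, and at 36.2 and 33.03 CPM in those of plates G and L. Intermediate and luminal GFP+ cells had 2.75 to 100.4 CPM over 7 plates (median 50.6) and 49.6 to 174.8 CPM over 6 plates (median 76.6). The ranges of all 3 gates overlapped, and luminal cells were above intermediate cells on 4 of 5 plates. Levels of Col4a6 in basal GFP+ cells were 148.2, 247.4 and 99.9 CPM on plates 1, 3 and 4 and 72.98 and 105.9 CPM on plates G and L. For Col4a6, intermediate GFP+ cells had 1.37 to 384.02 CPM over 7 plates (median 95.8) and luminal GFP+ cells 12.5 to 106.9 CPM over 6 plates (median 77.1). These ranges overlapped as well. From basal to luminal cells the fitted difference of Col4a5 was 0.15 (edgeR log2 difference, SE 0.63, adjusted p = 0.994), and that of Col4a6 was -0.87 (edgeR log2 difference, SE 0.76, adjusted p = 0.766). At the first step they were -0.56 (edgeR log2 difference, SE 0.63, adjusted p = 1.0) and -0.32 (edgeR log2 difference, SE 0.76, adjusted p = 1.0), and at the second 0.71 (edgeR log2 difference, SE 0.62, adjusted p = 0.83) and -0.55 (edgeR log2 difference, SE 0.77, adjusted p = 0.928). The share of luminal GFP+ cells with a read was 64.2% (54.9 to 72.7%) for Col4a5 and 66.7% (57.5 to 75%) for Col4a6, against 20% for Col4a1 at the same depth. Col18a1, which encodes the precursor of endostatin, had means of 176.03, 125.3 and 17.4 CPM in basal, intermediate and luminal GFP+ cells, and its luminal range lay below its basal range.

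**Figure D3:**
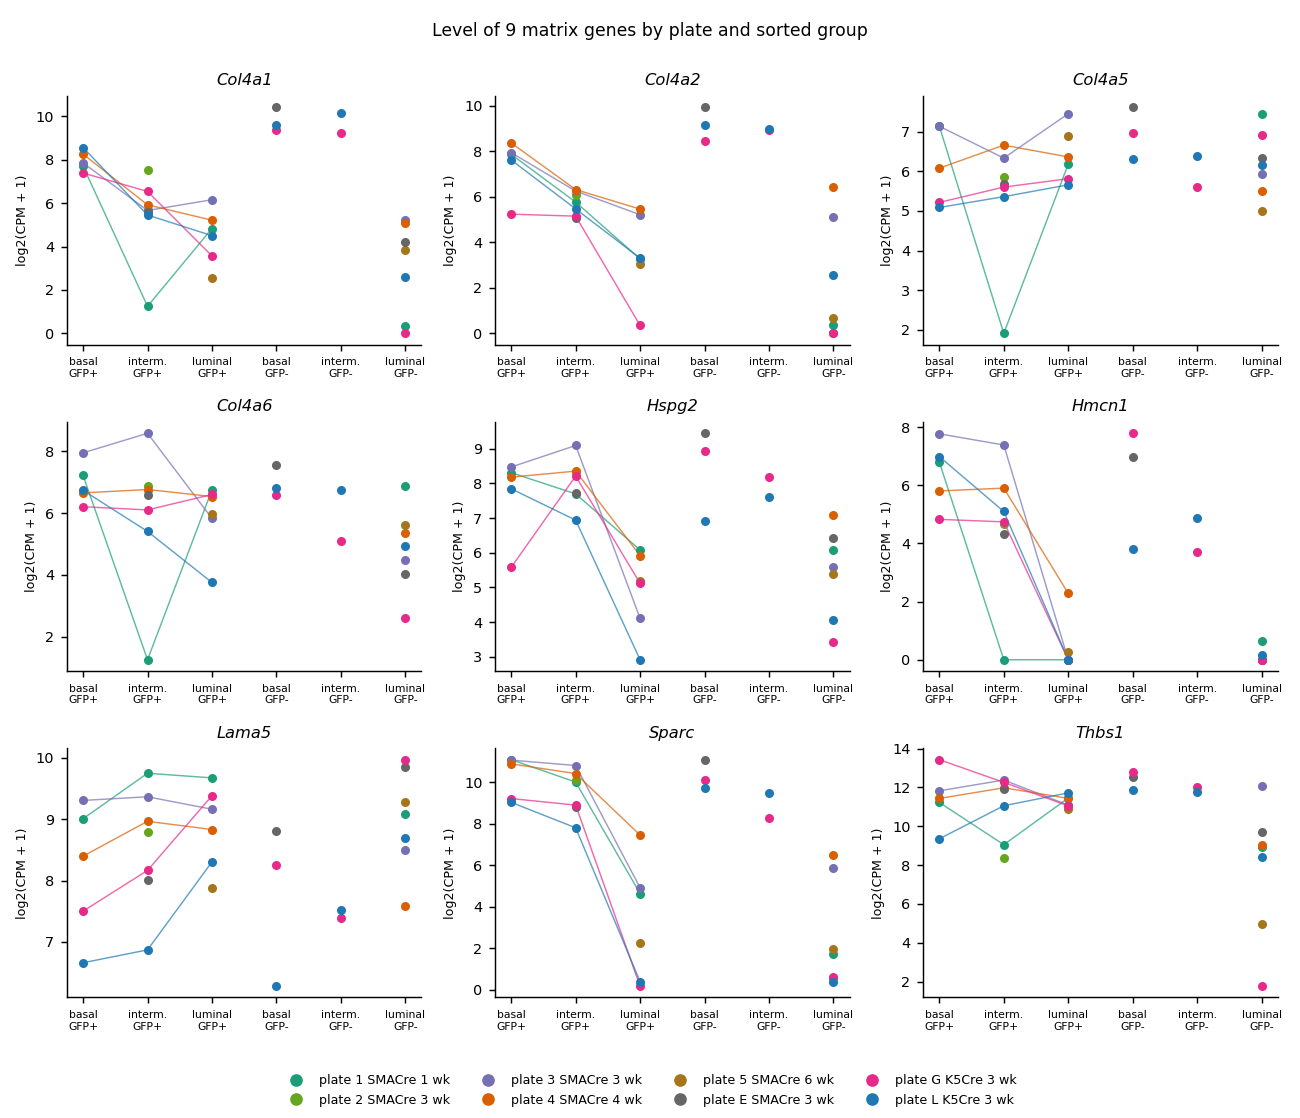
Level of 9 matrix genes (y axis, log2 of CPM + 1) in each sorted group, with 1 point per plate sum, coloured by plate, and lines joining the GFP+ gates of a plate. Luminal GFP+ points of Sparc and Hspg2 lie below all intermediate GFP+ points, whereas those of Lama5 and Col4a5 overlap.

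None of the 8 laminin chains passed in any test of the single edgeR fit. Calls in the alternative fits are given by gene only for some of the matrix genes. Laminin trimers hold an alpha, a beta and a gamma chain, and the trimer of alpha 3, beta 3 and gamma 2 anchors the basal cell's hemidesmosomes. Lama5 stood at 513.8, 631.9 and 336.3 CPM in the basal GFP+ cells of plates 1, 3 and 4 and at 180.1 and 100.1 CPM in those of plates G and L. Lama5 (the alpha 5 chain) had 115.9 to 859.3 CPM over 7 plates (median 444.3) in intermediate and 234.2 to 815.6 CPM over 6 plates (median 513.2) in luminal GFP+ cells. It was the only laminin lower in intermediate than in basal cells on 0 of 5 plates, and its mean was 352.4 ± 222.3 CPM in basal, 483.7 ± 294.2 CPM in intermediate and 564.6 ± 192.2 CPM in luminal GFP+ cells. Basal GFP+ cells had 340.6, 345.3 and 257.2 CPM of Lama3 on plates 1, 3 and 4 (SMACre) and 129.3 and 229.8 CPM on plates G and L (K5Cre). Lama3 (the alpha 3 chain) had 9.62 to 739.96 CPM over 7 plates (median 281.8) in intermediate and 9.08 to 599.95 CPM over 6 plates (median 50.8) in luminal GFP+ cells, where 64.2% of its luminal reads came from 1 cell. Its lowest intermediate value was that of plate 1. Lamb1 had means of 239.4, 153.7 and 30.9 CPM in basal, intermediate and luminal GFP+ cells, Lamb3 of 273.6, 165.8 and 50.1 CPM and Lamc1 of 211.9, 132.2 and 51.3 CPM, each with luminal values below basal values on 5 of 5 plates. Lamb2 was at 72.6, 92.7 and 91.4 CPM. Lama1 and Lama4 had means of at most 58.8 CPM in each GFP+ gate, and Lama4 was lower in intermediate than in basal cells on 5 of 5 plates. On plate L the intermediate and basal values of Lama4 were 82.9 and 91.8 CPM. Plate 2, which has no basal GFP+ sum, had 140 CPM of Lama4 in intermediate cells, above all basal GFP+ sums (at most 122.1 CPM).

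Among the linkers, Hspg2 and Hmcn1 were lower in luminal cells, and Agrn values overlapped across the gates. Hspg2 encodes perlecan, the large heparan sulfate proteoglycan that ties laminin to collagen IV, and lies on chromosome 4, 137468769 to 137570630. Its promoter window (chr4:137468553-137468852) holds 5 GC boxes and 1 TGGGAA, in capitals, and is shown as that of a gene held in intermediate cells.
Hspg2: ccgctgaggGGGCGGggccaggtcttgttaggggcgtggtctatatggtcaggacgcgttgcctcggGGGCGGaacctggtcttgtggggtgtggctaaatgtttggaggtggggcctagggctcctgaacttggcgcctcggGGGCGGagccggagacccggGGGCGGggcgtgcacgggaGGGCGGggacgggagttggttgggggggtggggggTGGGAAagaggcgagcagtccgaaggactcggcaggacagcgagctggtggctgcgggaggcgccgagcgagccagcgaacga
In basal GFP+ cells, Hspg2 was at 315.2, 353.5 and 288.4 CPM on SMACre plates 1, 3 and 4 and at 46.9 and 228.4 CPM on K5Cre plates G and L. Intermediate GFP+ cells had 121.7 to 543.5 CPM over 7 plates (median 294.7) and luminal GFP+ cells 6.56 to 66.6 CPM over 6 plates (median 34.7). All luminal values of the shared plates lay below all intermediate values, while basal and intermediate values overlapped. Luminal cells differed from intermediate cells by -3.11 (edgeR log2 difference, SE 0.55, adjusted p = 0.0136) and from basal cells by -3.05 (edgeR log2 difference, SE 0.57, adjusted p = 0.0091). For Hspg2 the difference from basal to luminal cells was -2.85 within batches 1 and 2 (adjusted p = 0.129, edgeR) and -3.38 within batch 3 (adjusted p = 0.355). Read in 86% of basal and 77.6% of intermediate GFP+ cells, Hspg2 was read in 34.2% (25.8 to 43.4%) of luminal GFP+ cells. The Hspg2 call from basal to luminal cells was lost in edgeR without plate 3 (adjusted p = 0.0637) or plate L (0.0805). The Hspg2 call from intermediate to luminal cells was lost in edgeR without plate 3 (adjusted p = 0.117).

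Hmcn1 encodes hemicentin 1, a long immunoglobulin-domain protein of basement membranes. Hmcn1 was at 109.98, 217.3 and 54.9 CPM in the basal GFP+ cells of plates 1, 3 and 4, and at 27.4 and 125.8 CPM in those of plates G and L. The intermediate GFP+ sums of Hmcn1 gave 0 to 166.1 CPM over 7 plates (median 25.8), and the luminal GFP+ sums 0 to 3.86 CPM over 6 plates (median 0). It was thus at or near 0 in luminal cells except on plate 4, which held 71 of the 73 luminal reads, and 67.1% of these came from 1 cell. The fitted difference from basal to luminal cells was -8.46 (edgeR log2 difference, SE 1.62, adjusted p = 0.0134). At the first step it was -1.37 (edgeR log2 difference, SE 1.14, adjusted p = 1.0), and at the second -7.08 (edgeR log2 difference, SE 1.53, adjusted p = 0.0572). For Hmcn1 the difference from basal to luminal cells was -7.20 within batches 1 and 2 (adjusted p = 0.372, edgeR) and -13.81 within batch 3 (adjusted p = 0.0713). The Hmcn1 call from basal to luminal cells was lost in edgeR without plate 3 (adjusted p = 0.0744) or plate L (0.054). Levels of Agrn in basal GFP+ cells were 406.2, 353.8 and 323.9 CPM on plates 1, 3 and 4 and 235.5 and 131.1 CPM on plates G and L. Agrn, which encodes agrin, had 38.5 to 469.1 CPM over 7 plates (median 201.6) in intermediate and 84.8 to 315.98 CPM over 6 plates (median 219.1) in luminal GFP+ cells, ranges that overlapped those of basal cells. Agrin was read in 85%, 83.9% and 85% of basal, intermediate and luminal cells. Nid1 (nidogen 1) had means of 50.0, 19.3 and 6.41 CPM, and Nid2 stayed at or below 16.9 CPM in every GFP+ sum.

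The 2 anchoring collagens attach basal cells to the matrix below, type VII collagen as anchoring fibrils and type XVII as a part of hemidesmosomes. Col17a1 stood at 376.2, 252.1 and 379.7 CPM in the basal GFP+ cells of plates 1, 3 and 4 and at 97.02 and 109.6 CPM in those of plates G and L. Col17a1 had 0 to 381.7 CPM over 7 plates (median 250.3) in intermediate and 0 to 18.5 CPM over 6 plates (median 9.14) in luminal GFP+ cells. Its 0 in the intermediate gate was that of plate 1, and its luminal values lay below all basal values. Basal GFP+ cells had 165.7, 77.2 and 261.9 CPM of Col7a1 on plates 1, 3 and 4 (SMACre) and 86.9 and 181.8 CPM on plates G and L (K5Cre). Col7a1 had 0 to 160.7 CPM over 7 plates (median 98.4) in intermediate and 0 to 64.8 CPM over 6 plates (median 8.75) in luminal GFP+ cells. Col17a1 was read in 83%, 77.6% and 11.7% and Col7a1 in 55%, 58.3% and 10% of basal, intermediate and luminal GFP+ cells. Neither passed in any test of the single edgeR fit.

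The interstitial collagens differed by chain. Col1a1, Col1a2 and Col3a1, the main collagens of fibroblasts, had means of at most 6.29 CPM in each GFP+ gate, and were read in at most 7% of the cells of a gate. By contrast, types V, VI, XIV and XVI were expressed, and 3 of these genes were lower in luminal cells. Col16a1 encodes a fibril-associated collagen. In basal GFP+ cells, Col16a1 was at 330.8, 435.6 and 399.9 CPM on SMACre plates 1, 3 and 4 and at 382.8 and 106.1 CPM on K5Cre plates G and L. For Col16a1, the intermediate GFP+ level was 51.8 to 511.8 CPM over 7 plates (median 304.9) and the luminal GFP+ level 0.544 to 90.1 CPM over 6 plates (median 27.8). Luminal values were below basal and intermediate values on 5 of 5 plates, with a fitted difference from basal cells of -3.96 (edgeR log2 difference, SE 0.90, adjusted p = 0.0331). For Col16a1 the difference from basal to luminal cells was -3.83 within batches 1 and 2 (adjusted p = 0.0964, edgeR) and -4.52 within batch 3 (adjusted p = 0.513). The Col16a1 call from basal to luminal cells was lost in edgeR without plate 1 (adjusted p = 0.0767), plate 3 (0.186), plate 4 (0.0756), plate 5 (0.0682) or plate E (0.0571).

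Col14a1 encodes another fibril-associated collagen. Col14a1 was at 178.2, 318.1 and 290.5 CPM in the basal GFP+ cells of plates 1, 3 and 4, and at 38.4 and 103.98 CPM in those of plates G and L. Intermediate GFP+ cells had 0.458 to 192.7 CPM over 7 plates (median 53.2) and luminal GFP+ cells 0.136 to 29.01 CPM over 6 plates (median 5.14). The mean was lower at each step, from 185.9 ± 119.3 CPM to 68.7 ± 73.5 CPM and 11.9 ± 12.2 CPM (SD, n = 5), and the basal and luminal ranges did not overlap. From basal to luminal cells the fitted difference was -4.35 (edgeR log2 difference, SE 0.92, adjusted p = 0.0236). For Col14a1 the difference from basal to luminal cells was -4.14 within batches 1 and 2 (adjusted p = 0.458, edgeR) and -4.75 within batch 3 (adjusted p = 0.207). The Col14a1 call from basal to luminal cells was lost in edgeR without plate 3 (adjusted p = 0.131), plate 4 (0.0782) or plate L (0.151).

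Col5a1 encodes a chain that nucleates collagen fibrils. Levels of Col5a1 in basal GFP+ cells were 39.3, 29.4 and 29.1 CPM on plates 1, 3 and 4 and 0.147 and 26.02 CPM on plates G and L. Intermediate GFP+ cells had 0 to 80.1 CPM over 7 plates (median 13.7), and in luminal GFP+ cells 2 reads were found over the 6 sums. The pooled level of basal sums was 665.6 times that of luminal sums, with a counting interval from 183.98 to 5500.4, and the edgeR call had an adjusted p of 0.0171. The Col5a1 call from basal to luminal cells was lost in edgeR without plate 3 (adjusted p = 0.085), plate 4 (0.0725) or plate L (0.0805). Col6a1 stood at 86.6, 268.1 and 217.1 CPM in the basal GFP+ cells of plates 1, 3 and 4 and at 35.6 and 32.8 CPM in those of plates G and L. Col6a1, a chain of the beaded type VI collagen, had 0 to 388.8 CPM over 7 plates (median 48.5) in intermediate and 0.386 to 38.1 CPM over 6 plates (median 19.8) in luminal GFP+ cells. Intermediate and basal values of Col6a1 overlapped widely, and Col6a2 moved with it, with means of 63.1, 77.9 and 3.24 CPM in basal, intermediate and luminal GFP+ cells. Col5a2 had means of 26.6, 10.7 and 1.60 CPM. Col6a3 was low, and 81.4% of its luminal GFP+ reads came from 1 cell.

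Of the elastic fibre genes, Fbn1 was lower in luminal than in both other gates. It encodes fibrillin 1, the main protein of microfibrils. Basal GFP+ cells had 146.4, 103.9 and 134.8 CPM of Fbn1 on plates 1, 3 and 4 (SMACre) and 1.03 and 25 CPM on plates G and L (K5Cre). The intermediate GFP+ sums of Fbn1 gave 27.5 to 183.7 CPM over 7 plates (median 111.8), and the luminal GFP+ sums 0 to 3.21 CPM over 6 plates (median 0.253). Luminal values lay below all intermediate values, and intermediate cells were above basal cells on 4 of 5 plates. The fitted difference was -7.10 (edgeR log2 difference, SE 1.34, adjusted p = 0.0415) from intermediate to luminal and -6.33 (edgeR log2 difference, SE 1.34, adjusted p = 0.031) from basal to luminal cells. For Fbn1 the difference from intermediate to luminal cells was -7.82 within batches 1 and 2 (adjusted p = 0.119, edgeR) and -6.43 within batch 3 (adjusted p = 0.595). The Fbn1 call from intermediate to luminal cells was lost in edgeR without plate 1 (adjusted p = 0.0769), plate 3 (0.189), plate 4 (0.098), plate 5 (0.0525) or plate E (0.0686). The Fbn1 call from basal to luminal cells was lost in edgeR without plate 1 (adjusted p = 0.103), plate 3 (0.144) or plate 4 (0.105). In basal GFP+ cells, Fbln2 was at 224.3, 267.98 and 279.6 CPM on SMACre plates 1, 3 and 4 and at 137.5 and 82.8 CPM on K5Cre plates G and L. Fbln2, which encodes the microfibril-binding fibulin 2, had 47.3 to 271.1 CPM over 7 plates (median 117.2) in intermediate and 0.227 to 159.2 CPM over 6 plates (median 81.2) in luminal GFP+ cells. It was lower in intermediate than in basal cells on 5 of 5 plates and remained readable in 36.7% of luminal cells. Eln (elastin) had means of 102.3, 77.9 and 2.9 CPM, and Fn1 (fibronectin) 32.9, 6.20 and 36.5 CPM, where 59.8% of the luminal reads of Fn1 came from 1 cell.

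Proteoglycans had lower luminal than intermediate values on at least 4 of 5 plates, and none of the 3 passed in any test of the single edgeR fit. Bgn was at 541.3, 341.2 and 629.8 CPM in the basal GFP+ cells of plates 1, 3 and 4, and at 168.1 and 30.7 CPM in those of plates G and L. Bgn, which encodes biglycan, a small leucine-rich proteoglycan that binds collagen, had 0.458 to 476.96 CPM over 7 plates (median 158.6) in intermediate and 0 to 81.4 CPM over 6 plates (median 0.457) in luminal GFP+ cells. Luminal values were below those of intermediate cells of the same plate on 5 of 5 plates. Levels of Vcan in basal GFP+ cells were 40.3, 128.6 and 362.04 CPM on plates 1, 3 and 4 and 0.147 and 77.2 CPM on plates G and L. Vcan, which encodes the large proteoglycan versican, had 22.7 to 146.2 CPM over 7 plates (median 48.3) in intermediate and 0 to 44.4 CPM over 6 plates (median 4.37) in luminal GFP+ cells. Vcan was also lower in luminal than in intermediate cells on 5 of 5 plates. Dcn (decorin) was read in 8% of basal and 4.48% of intermediate GFP+ cells.

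Sparc, the gene with the largest fall relative to its error, encodes a collagen-binding matricellular protein also called osteonectin, and lies on chromosome 11, 55394500 to 55423183. Its promoter window (chr11:55420031-55420330) is shown because no other matrix gene passed in as many alternative fits, and it holds none of the motifs searched, so no letter is in capitals.
Sparc: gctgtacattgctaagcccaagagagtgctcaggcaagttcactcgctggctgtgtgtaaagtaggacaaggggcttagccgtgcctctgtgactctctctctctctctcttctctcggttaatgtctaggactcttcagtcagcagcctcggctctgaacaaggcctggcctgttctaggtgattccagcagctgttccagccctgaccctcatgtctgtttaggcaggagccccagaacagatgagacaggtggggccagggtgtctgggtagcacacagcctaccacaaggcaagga
Sparc stood at 2157, 2125 and 1875 CPM in the basal GFP+ cells of plates 1, 3 and 4 and at 589.6 and 518.7 CPM in those of plates G and L. For Sparc, the intermediate GFP+ level was 221.9 to 1776 CPM over 7 plates (median 1022) and the luminal GFP+ level 0.136 to 173.5 CPM over 6 plates (median 13.8). On each of the 5 plates the order from high to low was basal, intermediate, luminal. The intermediate range overlapped that of basal cells, and the luminal range lay below both. The luminal level of Sparc differed from the intermediate one by -6.77 (edgeR log2 difference, SE 0.99, adjusted p = 0.00187) and from the basal one by -7.41 (edgeR log2 difference, SE 1.02, adjusted p = 0.00076), while the first-step difference was -0.64 (edgeR log2 difference, SE 0.78, adjusted p = 1.0). For Sparc the difference from basal to luminal cells was -5.54 within batches 1 and 2 (adjusted p = 0.0398, edgeR) and -11.31 within batch 3 (adjusted p = 7.27e-05). The second step of Sparc minus the first was -6.13 on the log2 scale (edgeR, unadjusted p = 0.00014, adjusted p = 0.41), which did not pass. Sparc was read in 98% of basal, 61.4% of intermediate and 15% of luminal GFP+ cells, and both calls remained without each of the 8 plates in turn. The difference from intermediate to luminal cells was -4.81 within batches 1 and 2, where it did not pass (edgeR adjusted p = 0.0707), and -10.5 within batch 3 (adjusted p = 0.000123).

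Of the other matricellular genes, Thbs1, Ccn1 and Ccn2 passed in none of the tests of the single edgeR fit. Basal GFP+ cells had 2388, 3621 and 2758 CPM of Thbs1 on plates 1, 3 and 4 (SMACre) and 11004 and 652.2 CPM on plates G and L (K5Cre). Thbs1, which encodes thrombospondin 1, had 323.4 to 5321 CPM over 7 plates (median 3876) in intermediate and 1919 to 3363 CPM over 6 plates (median 2468) in luminal GFP+ cells. With a mean of 672.6, 557 and 435 CPM per kb of exon in the 3 gates, it was the most highly expressed matrix gene per length in basal and intermediate cells, and it was read in at least 90% of the cells of each gate. Ccn1, an early-response gene that codes for a secreted integrin ligand, led per length in luminal cells at 597 CPM per kb, against 398 in basal and 170.8 in intermediate cells, and was higher in luminal than in intermediate cells on 5 of 5 plates, without passing. Ccn2 had means of 701.6, 154.2 and 196.4 CPM.

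Postn encodes periostin, an adhesion protein of remodelling matrix. In basal GFP+ cells, Postn was at 520.8, 405.9 and 722.1 CPM on SMACre plates 1, 3 and 4 and at 57.01 and 148.3 CPM on K5Cre plates G and L. Intermediate GFP+ cells had 0.77 to 662.6 CPM over 7 plates (median 114.4) and luminal GFP+ cells 0 to 67.2 CPM over 6 plates (median 9.27). Luminal values were below intermediate values on 5 of 5 plates, and a read of it was found in 62% of basal, 25.6% of intermediate and 13.3% of luminal GFP+ cells. From basal to luminal cells the fitted difference of Postn was -4.31 (edgeR log2 difference, SE 0.99, adjusted p = 0.0366). For Postn the difference from basal to luminal cells was -4.95 within batches 1 and 2 (adjusted p = 0.356, edgeR) and -3.52 within batch 3 (adjusted p = 0.386). The Postn call from basal to luminal cells was lost in edgeR without plate 1 (adjusted p = 0.0597), plate 3 (0.126), plate 4 (0.0914), plate 5 (0.0521), plate G (0.0657) or plate L (0.0788). Aebp1 had means of 208.1, 180.5 and 35.5 CPM, Sparcl1 236.1, 119.3 and 0.136 CPM, and Reln 23.4, 6.30 and 4.90 CPM. Tnc and Thbs2 were read in at most 7.50% of the cells of each GFP+ gate.

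Among the enzymes, Mmp2 and Adamts18 were lower in luminal than in basal cells, and the inhibitors Timp2 and Timp3 did not pass in the single edgeR fit. Mmp2 encodes a gelatinase that cleaves type IV collagen. Mmp2 was at 215.6, 281.7 and 189.1 CPM in the basal GFP+ cells of plates 1, 3 and 4, and at 57.2 and 0 CPM in those of plates G and L. The intermediate GFP+ sums of Mmp2 gave 0 to 223.1 CPM over 7 plates (median 17.5), and the luminal GFP+ sums 0 to 0.871 CPM over 6 plates (median 0.21). It had no read in the basal cells of plate L, so that basal and luminal ranges overlapped, while luminal values lay below all intermediate values of the shared plates. From basal to luminal cells the fitted difference was -8.68 (edgeR log2 difference, SE 1.70, adjusted p = 0.015). For Mmp2 the difference from basal to luminal cells was -8.36 within batches 1 and 2 (adjusted p = 0.148, edgeR) and -11.99 within batch 3 (adjusted p = 0.41). The Mmp2 call from basal to luminal cells was lost in edgeR without plate 1 (adjusted p = 0.0561). Adamts18 encodes a secreted metalloprotease of basement membranes. Levels of Adamts18 in basal GFP+ cells were 10.1, 2.88 and 81.99 CPM on plates 1, 3 and 4 and 0.147 and 55.5 CPM on plates G and L. In intermediate GFP+ cells it had 0 to 74.7 CPM over 7 plates (median 1.56), and in luminal GFP+ cells 0 to 0.49 CPM over 6 plates (median 0). The fitted difference of Adamts18 from basal to luminal cells was -7.49 (edgeR log2 difference, SE 1.66, adjusted p = 0.0304), and 34% of its basal reads came from 1 cell. For Adamts18 the difference from basal to luminal cells was -6.90 within batches 1 and 2 (adjusted p = 0.401, edgeR) and -11.78 within batch 3 (adjusted p = 0.315). The Adamts18 call from basal to luminal cells was lost in edgeR without plate 1 (adjusted p = 0.0824), plate 3 (0.0724), plate 4 (0.141) or plate L (0.211).

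Timp2 stood at 220.9, 252.6 and 233.96 CPM in the basal GFP+ cells of plates 1, 3 and 4 and at 87.1 and 45.3 CPM in those of plates G and L. Timp2 (tissue inhibitor of metalloproteinases 2) had 67.2 to 272.9 CPM over 7 plates (median 124.97) in intermediate and 77.6 to 180.9 CPM over 6 plates (median 150.97) in luminal GFP+ cells, with all 3 ranges overlapping. Basal GFP+ cells had 315.1, 515.99 and 202.9 CPM of Timp3 on plates 1, 3 and 4 (SMACre) and 377.5 and 7.01 CPM on plates G and L (K5Cre). Timp3, an inhibitor that binds to the matrix, had 161.2 to 443.7 CPM over 7 plates (median 281.9) in intermediate and 2.31 to 588.8 CPM over 6 plates (median 93.4) in luminal GFP+ cells. The basal value of plate L stood far below the other 4, and 49.8% of the luminal reads came from 1 cell. Crispld2 had means of 229.6, 41.6 and 89.8 CPM and Loxl1 9.63, 2.49 and 0.262 CPM, and Lox was read in 0 of 120 luminal GFP+ cells, which allows a share of up to 2.50%.

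**Figure D4:**
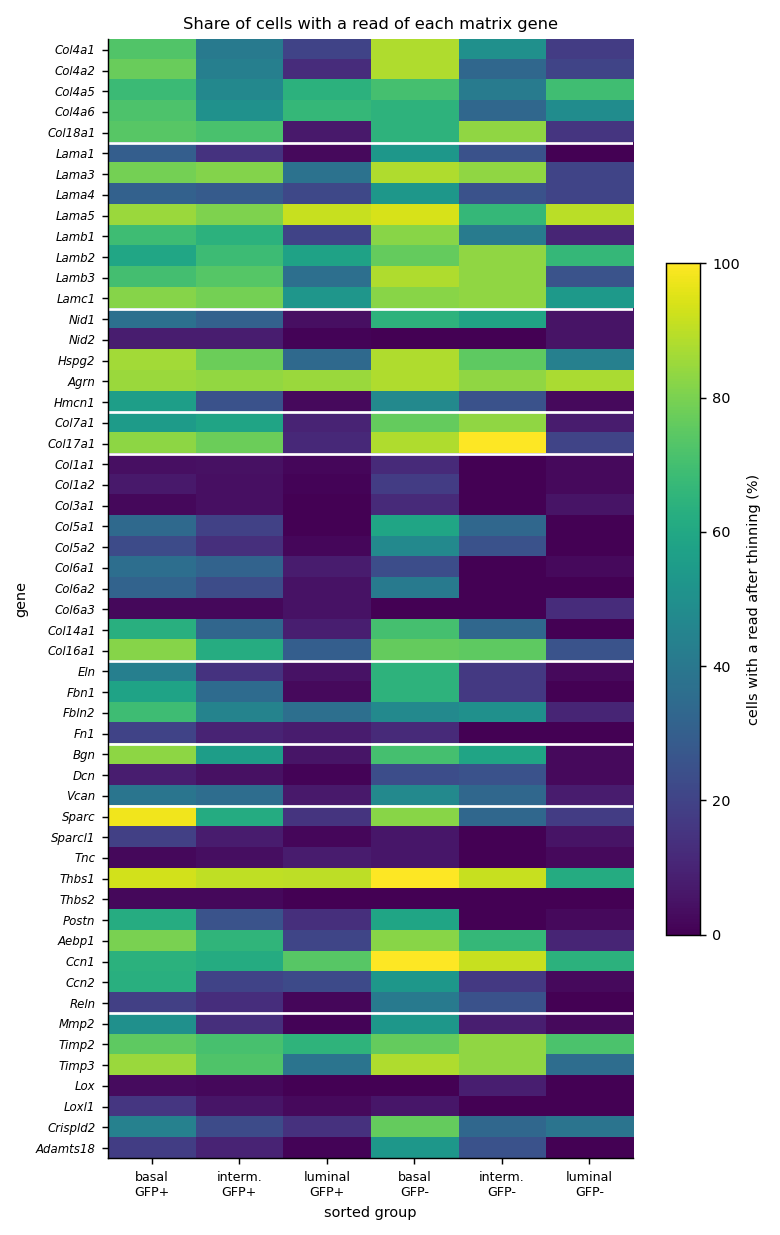
Share of cells with at least 1 read of each of the 54 matrix genes after thinning to 100000 reads (colour, percent), in each sorted group (x axis), with white lines between role groups. Sparc is at 98%, 61.4% and 15% in basal, intermediate and luminal GFP+ cells, and Agrn between 83.9% and 85%.

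A single luminal GFP+ cell of plate 4, 1 of 120, had reads of 39 of the 54 genes after thinning. Over the 26 genes described in full it held 4.39% of the luminal GFP+ reads, and under 25% for 15 of the 26. It held 53.2% of the luminal GFP+ reads of Sparc, 76.2% of those of Mmp2 (16 of 21 reads), 72.5% of those of Vcan, 52.9% of those of Col14a1 and 47.8% of those of Fbn1. Its share was 4.30% for Hspg2, 8.88% for Postn, 9.59% for Hmcn1 and 10.4% for Col16a1, and at most 2.43% for Agrn, Lama5 and Thbs1. The cell was singled out after its values were seen.

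Chase length and Cre line were read side by side, since each chase of SMACre other than 3 weeks rests on 1 plate. The summed matrix genes of SMACre basal GFP+ cells were 14320.0 CPM at 1 week, 16484 CPM at 3 weeks and 15296 CPM at 4 weeks. Those of luminal GFP+ cells were 4806, 5826, 6884 and 5128 CPM at 1, 3, 4 and 6 weeks. Neither gate gave an order with time, and no basal or intermediate GFP+ sum exists at 6 weeks. In K5Cre cells at 3 weeks, basal GFP+ cells had 18344 CPM on plate G and 4987 CPM on plate L, intermediate cells 10755 and 5249 CPM and luminal cells 5080.4 and 8629 CPM. In basal and luminal GFP+ cells, plates G and L thus differed more than the SMACre chases did, although the labels of plate L disagree on its chase. This did not extend to the intermediate gate. There the SMACre sums were 5307 CPM at 1 week, 7231, 15884 and 8398 CPM at 3 weeks (plates 2, 3 and E) and 12179 CPM at 4 weeks. Sparc in luminal GFP+ cells was 23.9, 29.2, 173.5 and 3.73 CPM at 1, 3, 4 and 6 weeks in SMACre plates and 0.136 and 0.317 CPM in K5Cre plates G and L. Hspg2 in the same cells was 66.6, 16.2, 59.4 and 35.6 CPM at 1, 3, 4 and 6 weeks in SMACre plates and 33.7 and 6.56 CPM in K5Cre plates G and L.

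**Figure D5:**
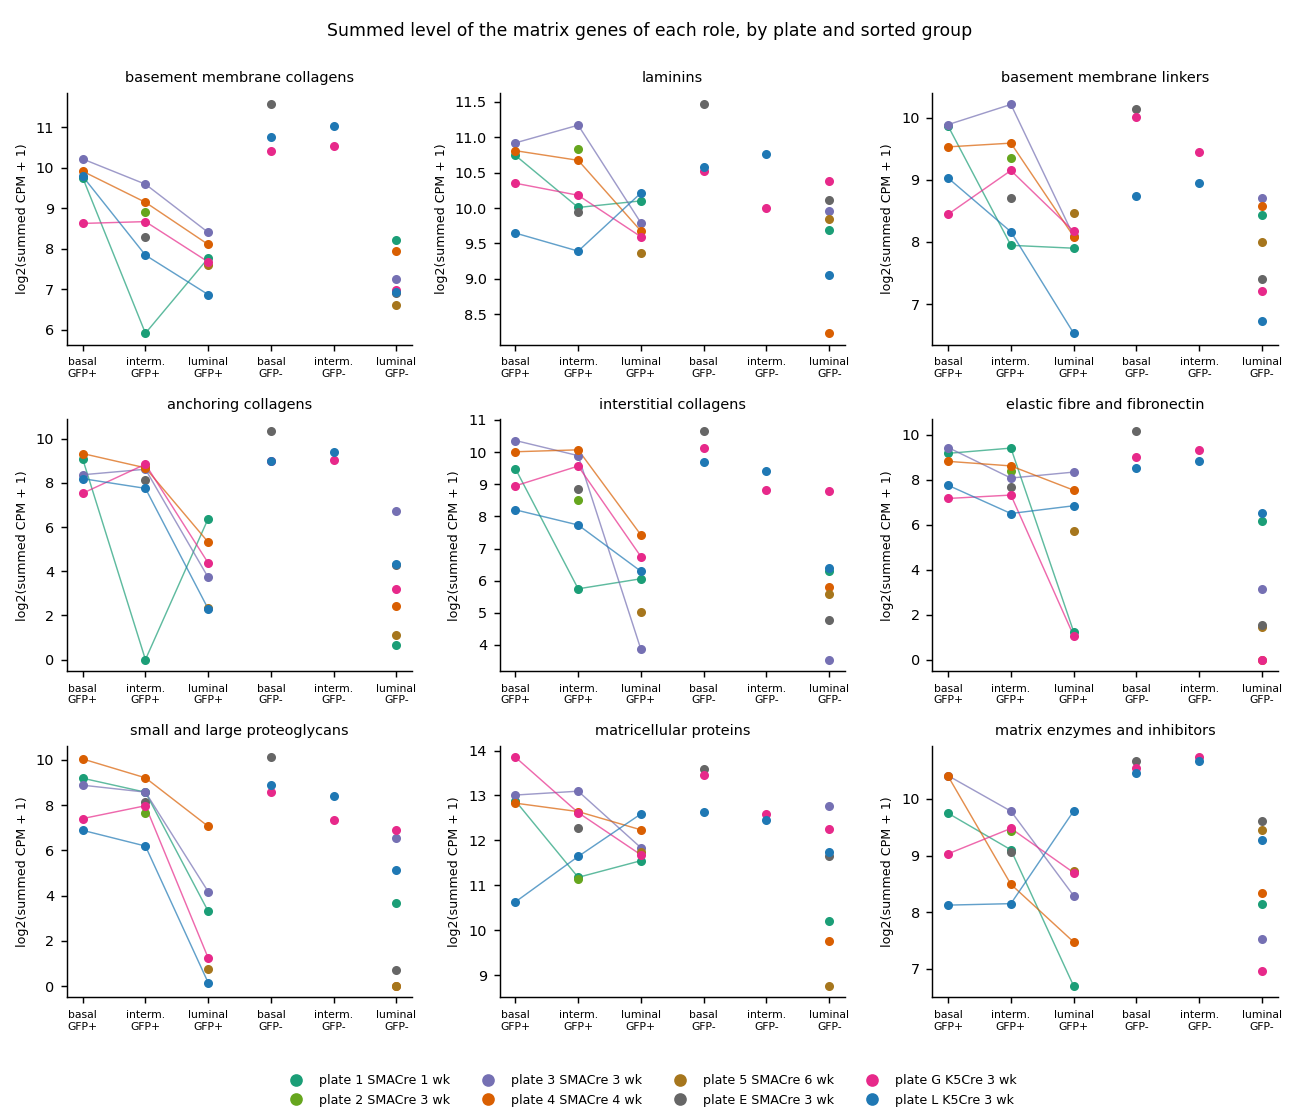
Summed level of the matrix genes of each role (y axis, log2 of summed CPM + 1) in each sorted group, with 1 point per plate, coloured by plate with its Cre line and weeks of chase, and lines joining the GFP+ gates of a plate. Anchoring collagens are at 183.9 to 641.6 CPM in basal GFP+ sums and at most 82.5 CPM in luminal GFP+ sums.

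Luminal GFP+ cells, which derive from basal cells, were set against luminal GFP- cells of the same mice. Of the 54 matrix genes, 2 were higher in GFP+ cells, Col14a1 and Postn, where 0.0303% of all genes passed (6 genes, all higher). The median fitted difference of the matrix genes was 0.84, or 0.78 with genes at 0 in a group set at their bound, against 0.39 over all genes tested. Col14a1 had 88, 16, 533, 5, 1 and 68 reads in the luminal GFP+ sums of plates 1, 3, 4, 5, G and L, and 1 read in the 7 luminal GFP- sums. The pooled ratio was 331.0, with a counting interval from 59.2 to 13092, and the edgeR call had an adjusted p of 0.0314. The Col14a1 call between luminal GFP+ and GFP- cells was lost in edgeR without plate 3 (adjusted p = 0.121), plate 4 (0.373), plate E (0.104) or plate L (0.213). For Col14a1 the difference between luminal GFP+ and GFP- cells was 9.72 within batches 1 and 2 (adjusted p = 0.81, edgeR) and 5.77 within batch 3 (adjusted p = 0.597). Postn had 0 to 67.2 CPM over 6 plates (median 9.27) in luminal GFP+ cells and 0 to 0.781 CPM over 7 plates (median 0) in luminal GFP- cells, and its fitted difference was 5.96 (edgeR log2 difference, SE 1.09, adjusted p = 0.0476). For Postn the difference between luminal GFP+ and GFP- cells was 9.97 within batches 1 and 2 (adjusted p = 0.753, edgeR) and 5.09 within batch 3 (adjusted p = 0.597). The Postn call between luminal GFP+ and GFP- cells was lost in edgeR without plate 3 (adjusted p = 0.262), plate 4 (0.4), plate 5 (0.0796), plate E (0.104), plate G (0.131) or plate L (0.0643). Without the 18 cells with 3 or more fibroblast markers neither gene passed, with edgeR adjusted p = 0.362 for Col14a1 and 0.27 for Postn, and 0 matrix genes and 0.00519% of all genes were called. Both genes were read in few luminal GFP+ cells, 8.33% and 13.3%, and the cell of plate 4 described above held 52.9% of the luminal GFP+ reads of Col14a1. In the batch 1 and 2 annotation, luminal GFP- cells are the estrogen receptor-negative ones. The paper describes its hormone receptor-positive cluster as mainly wild-type cells, so the 2 groups may differ in luminal type. Kit was read in 88.3% of luminal GFP+ and 61.5% of luminal GFP- cells, Aldh1a3 in 74.2% and 51.3%, and Elf5 in 68.3% and 41.03%. Krt8, Krt18, Krt19, Epcam, Cldn3, Cldn7 and Ltf differed less. The part of luminal type was not tested.

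Basal GFP+ cells were compared with basal GFP- cells, which plates G and L hold side by side. No matrix gene passed, where 0.00505% of all genes did (1 gene), with 2 of the 54 and 820 of all genes at an unadjusted p under 0.05 in edgeR, and 1 and 590 (2.98% of all genes) called by DESeq2. The 1 matrix gene called by DESeq2 was higher in GFP+ cells. The median fitted difference of the matrix genes was -0.52 (35 of 54 negative), or -0.62 with genes at 0 in a group set at their bound, against 0.26 over all genes. GFP+ cells were lower than GFP- cells of the same plate for 39 genes on plate G and 40 on plate L, and for 28 of the 54 on both. Since most of the 54 were lower on each plate, an overlap of this size needs no agreement between the plates. Shares over all genes were not counted for the plate comparisons of this paragraph. Col4a1 had 166.8 and 377.5 CPM in basal GFP+ cells and 662.03 and 779.03 CPM in basal GFP- cells of plates G and L. Col4a2 had 36.8 and 195.8 CPM against 345.8 and 577.6 CPM. Both type IV genes were thus lower in the GFP+ cells of each plate. In the intermediate gate, GFP+ cells were lower for 22 genes on plate G and 37 on plate L, and Col4a1 had 92.3 and 42.9 CPM in GFP+ and 607.6 and 1124 CPM in GFP- cells, where 45.6% of the reads came from 1 of 12 cells. This gap was not tested.

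Genes near this set were examined from further lists. Of 46 other matrix genes tested, 3 were lower in luminal than in basal GFP+ cells, Matn2, Mgp and Fbln5, and the median log2 difference was -2.33. Matn2, which encodes a matrilin, gave an edgeR log2 difference of -6.14 with an adjusted p of 0.014, and Mgp, the matrix Gla protein, -5.55 with 0.0284. Fbln5 had an adjusted p of 0.0227 in edgeR, with means of 14.9, 1.76 and 0 CPM in basal, intermediate and luminal GFP+ cells of the 5 shared plates. Of 27 matrix receptors tested, Dst, which encodes dystonin of the hemidesmosome plaque, was lower in luminal cells, with an edgeR log2 difference of -1.999 from basal cells (adjusted p = 0.0075) and -2.08 from intermediate cells (adjusted p = 0.0133). Of 29 genes for collagen and laminin processing, 0 passed in edgeR between luminal and basal cells, with 8 at an unadjusted p under 0.05, and their median was -1.38. P4hb, which encodes a subunit of prolyl 4-hydroxylase and had the highest mean, was at 541.2, 492.7 and 330.1 CPM in basal, intermediate and luminal GFP+ cells. Of 20 proteases and inhibitors tested, 2 were lower and 1 was higher in luminal than in basal cells. Of these, Adamts4 (edgeR adjusted p = 0.0085) was lower in luminal than in basal cells, and Mmp15, a membrane-bound metalloprotease, was higher by 3.52 on the log2 scale (adjusted p = 0.031). Means in basal, intermediate and luminal GFP+ cells were 83.6, 28.5 and 1.36 CPM for Adamts4.

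Markers of other cell types moved with part of these results. The summed fibroblast markers were 18.02 to 263.9 CPM in basal, 22.3 to 660.4 CPM in intermediate and 0.00 to 9.80 CPM in luminal GFP+ sums, so that they too were lower in luminal cells. Of the 10 fibroblast markers, Twist2 was read in 0 basal, intermediate and luminal GFP+ cells, which allows up to 3%, 1.35% and 2.50%. Lum, Dpt, Pi16 and Mfap5 were read in at most 2% of the cells of each GFP+ gate. Pdgfra was read in 5%, 6.28% and 0.833% of basal, intermediate and luminal GFP+ cells, and Clec3b in 3%, 9.42% and 0.833%. In the same gates Cd34 was read in 5%, 5.83% and 4.17%, and Ly6c1 in 4%, 3.14% and 0.833%. Fbln1, itself a matrix gene, was read in 28% of basal, 31.4% of intermediate and 1.67% of luminal GFP+ cells. Without the 18 cells that had reads of 3 or more fibroblast markers, 7 matrix genes were lower in luminal than in basal cells in place of 10 (0.488% of all genes), and 2 were lower than in intermediate cells in place of 3 (0.0882% of all genes). The calls lost from basal to luminal cells were Col14a1 (edgeR adjusted p = 0.44), Col16a1 (0.0967), Postn (0.133) and Adamts18 (0.165), and the call of Fbn1 from intermediate to luminal cells was lost as well (0.0835). The edgeR difference of Sparc from intermediate to luminal cells was then -6.25, with an adjusted p of 0.0648, and that of Hspg2 -3.12, with 0.0325. Sparcl1, a relative of Sparc, passed in both comparisons without these cells and in neither with them. Within cells with no fibroblast marker, a median of 30 matrix genes was read in basal, 15 in intermediate and 11 in luminal GFP+ cells. Over all cells these medians were 30, 21 and 11. In basal GFP- cells the median was 18.5 in the 8 cells with no fibroblast marker, against 36 over all 17. The markers, here and for the 18 cells, include Fbln1 and were counted on all reads, whereas the matrix genes were counted on thinned reads. Cells without a marker are thus also selected by depth and for lacking a matrix gene. These medians therefore cannot show what fibroblast RNA adds. Pericyte and endothelial markers reached 747 CPM in the basal and 1164 CPM in the intermediate GFP+ sum of plate 1 and at most 64.1 CPM in the other GFP+ sums, and their part in the results was not tested.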

How the data were processed

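The deposited files hold raw read counts per gene and cell, made by the authors from Smart-seq2 libraries aligned to the mouse genome build GRCm38 (mm10). The submitters' processing notes name Trim Galore 0.6.5, STAR 2.7.7a and HTSeq 0.13.5 for the reads, and R 4.3.0 with Seurat 4.3.0.1. Libraries hold no molecular identifiers, and the chemistry does not mark strand, so overlapping genes cannot be told apart. Batches 1 and 2 were sequenced single-end and batch 3 paired-end, which could shift levels between batches.

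Of 840 deposited cells, a repeat run of 96 cells was left out. The study's thresholds were applied: 10% or more mitochondrial reads, 1400 or fewer genes, or 100000 or fewer reads removed a cell, as did fewer than 2 Epcam reads or more than 1 read of Dcpp1, a salivary marker in this study, leaving 511 of the 711 cells that passed the first 3. Counts were summed per plate and sorted group of at least 3 cells. The plate, from 1 or 2 mice, was taken as replicate, since SMACre plates at 3 weeks come from different mice and batches, and p-values rest on these plates. Sums were tested with edgeR 4.0.16 (filtered on low counts, TMM, quasi-likelihood, 6 groups plus plate, 17 residual degrees of freedom), and p-values were Benjamini-Hochberg adjusted over 19796 genes. The biological coefficient of variation was 1.24. Alternatives used DESeq2 1.42.0, limma 3.58.1 and other filters, units and plates, and the fit was tested on simulated counts. Shares of cells used reads thinned to 100000 per cell, with exact 95% binomial intervals. A limit for a 0 is 3 counts.

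The members and lists were chosen with earlier results of these data known, and many members are in a gene list the study drew from these cells, so their direction is not independent evidence. Plate values are given in full for 26 members: in each role the 2 with the highest mean CPM over GFP+ sums, each member past the threshold in any test of the single edgeR fit, and Hmcn1, Sparc, Col4a1, Col4a2, Col4a5 and Col4a6. Of each other list, at most 3 genes past the threshold are named. A further result among the proteases and inhibitors is not reported here. Gene positions are from the GENCODE annotation and promoter windows from RefSeq (GRCm38.p6).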

Additional observations from a re-analysis of the deposited data

Results flagged for a closer look

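Within the groups of 4 to 10 plate sums, 28 tests on log2(CPM + 1), 19.7% of those made, found a highest or lowest sum far from the others by Dixon's 95% limit. The 1 in 20 of this limit does not hold where all other sums of a group are 0, since any sum above 0 then passes. The share can therefore not be set against chance. Many of the 28 fell on a few sums. The 4 intermediate GFP+ cells of plate 1 stood low for the summed anchoring collagens (0 CPM), Col4a1 (1.37 CPM), Col4a5 (2.75 CPM), Lama3 (9.62 CPM), Hmcn1 (0 CPM), Col17a1 (0 CPM), Col14a1 (0.458 CPM) and Bgn (0.458 CPM). The basal GFP+ cells of plate L stood low for all matrix genes together (4987 CPM), Col16a1 (106.1 CPM), Mmp2 (0 CPM) and Timp3 (7.01 CPM), and those of plate G for the summed basement membrane collagens (394 CPM), Col4a2 (36.8 CPM), Hspg2 (46.9 CPM) and Col5a1 (0.147 CPM). The luminal GFP+ cells of plate L were low for the summed basement membrane linkers (91.4 CPM) and Col4a6 (12.5 CPM).

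The luminal GFP+ cells of plate 4, which hold the cell with 39 matrix genes, were high for Hmcn1 (3.86 CPM), Fbn1 (3.21 CPM) and Bgn (81.4 CPM). Among luminal GFP- sums, plate 1 was high for Hmcn1 (0.568 CPM) and Col6a1 (22.2 CPM), plate E for Col7a1 (18.1 CPM), plate 3 for Mmp2 (25.6 CPM), and plate L for Col14a1 (0.107 CPM), Bgn (34.1 CPM) and Adamts18 (0.750 CPM). For Col6a1, Col14a1 and Adamts18 all other luminal GFP- sums were 0, and the value of Col14a1 is 1 read.

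In 4 of 52 comparisons of a step between Cre lines, the 3 SMACre plates all moved one way and the 2 K5Cre plates the other, on log2(CPM + 1), and the difference was not tested. Equal and independent signs would give such a split in about 1 in 16 comparisons, so 4 of 52 is near that share. From intermediate to luminal cells, Lama5 changed by a mean of -0.14 in SMACre and 1.32 in K5Cre plates, and Timp2 by -0.77 and 0.79. From basal to intermediate cells, Bgn changed by -2.99 in SMACre and 0.32 in K5Cre plates, and Timp3 by -0.35 and 2.32. Both K5Cre plates are in batch 3, so Cre line and batch cannot be told apart here.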

How the results depend on the processing

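In the order intermediate against basal, luminal against intermediate and luminal against basal GFP+ cells, luminal GFP+ against GFP-, basal GFP+ against GFP-, and the second step minus the first, edgeR called 0, 0.152, 0.727, 0.0303, 0.00505 and 0.0152% of the genes tested and, in brackets here and below, 0, 3, 10, 2, 0 and 0 matrix genes. DESeq2 called 1.94, 5.82, 8.58, 6.09, 2.98 and 2.28% (1, 24, 31, 10, 1 and 4), and edgeR without a filter on low counts 0.163, 1.14, 1.83, 0.465, 0.0897 and 0.324% (4, 21, 30, 13, 2 and 10). With a Cre line at a chase time as the unit in place of the plate the values were 0, 0.155, 0.876, 0.0345, 0 and 0.00863% (0, 5, 16, 2, 0 and 0). With no filter on Epcam and Dcpp1 they were 0, 0.371, 1.44, 0.0381, 0.00476 and 0.00476% (0, 8, 19, 2, 0 and 0), and with removal of cells over 100 Dcpp1 reads only, 0, 0.551, 1.72, 0.0242, 0.00483 and 0.0242% (0, 7, 20, 1, 0 and 0). Leaving out the 18 cells with 3 or more fibroblast markers gave 0, 0.0882, 0.488, 0.00519, 0.00519 and 0.00519% (0, 2, 7, 0, 0 and 0). Cells thinned to 100000 reads gave 0, 1.25, 3.11, 0, 0 and 0.0343% (0, 9, 22, 0, 0 and 1), limma on the mean of log2(CPM + 1) per cell 0, 2.86, 4.94, 0.00751, 0.0451 and 0.0376% (0, 10, 22, 0, 0 and 0), and sums of at least 5 cells 0, 0.388, 1.13, 0.0497, 0.00497 and 0% (0, 7, 16, 1, 0 and 0). Batches 1 and 2, where basal GFP- cells are not present, gave 0, 0.0418, 0.132, 0 and 0.0139% (0, 0, 1, 0 and 0) for the other 5 tests, and batch 3 0, 0.0445, 0.0778, 0, 0 and 0.0111% (0, 1, 1, 0, 0 and 1). Fits on the groups compared alone gave 0, 0, 0.562, 0, 0 and 0% (0, 0, 2, 0, 0 and 0). Leaving out each plate in turn gave 0, 0.0563 to 0.185, 0.195 to 0.744, 0 to 0.0564, 0 to 0.00513 and 0 to 0.023% (0, 1 to 4, 2 to 10, 0 to 2, 0 and 0), with the lowest share between luminal and basal cells without plate 3. Smaller fits test with fewer plates, and the cause of the other shifts was not tested.

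The plate term of the fit is the replicate block of this design, since the groups of a plate come from the same mice. With no replicate block the shares were 0, 0.364, 0.879, 0.0253, 0.00505 and 0.0152% (0, 5, 9, 1, 0 and 0), and Sparc was no longer called between luminal and intermediate cells (-4.69, edgeR adjusted p = 0.0777), nor Postn between luminal and basal cells (adjusted p = 0.0567) or between luminal GFP+ and GFP- cells (adjusted p = 0.0567).

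Of the order classes, the 3 genes already low in intermediate cells became 5 with limma, and the 18 held became 10 with Cre line and chase as the unit and 10 within batches 1 and 2. The first step of Col4a2, 1 of those 3, did not reach -1 in some fits. It was -0.96 within batch 3 and -0.90 without the 18 cells with 3 or more fibroblast markers. With each plate left out it ranged from -1.87 to -0.91. Of the alternative values of the fitted differences in the text, 77.8% kept direction and side of the threshold, 4.64% came to pass it, 16.2% no longer passed and 1.44% (9 values) changed sign. The changes of sign were among the type IV collagens. From basal to intermediate cells, Col4a5 became 0.27 within batch 3 and Col4a6 0.045 with sums of at least 5 cells. From intermediate to luminal cells, Col4a1 became 0.50 within batches 1 and 2 and Col4a6 0.42 with limma, and leaving out each plate gave Col4a6 -1.14 to 0.077. From basal to luminal cells, Col4a5 became -0.036 with removal over 100 Dcpp1 reads only, -0.13 with thinned cells and -0.023 within batches 1 and 2, and ranged from -0.034 to 0.50 when each plate was left out. Low depth in batches 1 and 2 and few cells in a sum limit the genes near 0.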
